A study of Mus musculus with 4 samples.

Results

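The genes described here build and run mitosis: cyclins and their kinase, condensin, the chromosomal passenger and checkpoint proteins, kinetochore subunits, spindle factors and the proteins of cytokinesis. A list of 55 symbols defined them, kinesins other than Cenpe left aside. Every probe set that the platform annotation assigns to exactly 1 of these symbols was taken. That gave 118 probe sets for 54 genes, of 34945 probe sets and 18193 genes on the array. Ccnb1, the main mitotic B-type cyclin, had no such probe set, and its level was not analysed here. Of the 54 genes, 52 exceeded the array background on at least 2 of the 4 arrays and were tested, while Plk1 and Mybl2 did not.

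The series profiled CD4 single-positive thymocytes, the T cell precursors that have settled on the CD4 lineage, from mice on a B6 background. The LM arrays (n = 2) came from mice with both Cul3 alleles floxed and no CD4-Cre, and the KO arrays (n = 2) from mice with the same floxed alleles and CD4-Cre, a transgene that expresses Cre recombinase under Cd4 regulatory sequences. Cells were sorted at 4C without CD25+ cells, without cells that bind the CD1d-PBS57 tetramer (NKT cells) and without gamma delta T cells. Age, the number of animals per sample and whether replicates came from separate mice were not stated in the labels, so each p-value reflects how far these samples scatter, a scatter that may be technical. No array came from Cre-carrying mice with unfloxed Cul3, so effects of Cre and of Cul3 loss cannot be told apart.

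As background, most mitotic genes are transcribed periodically. Their RNA climbs through S and G2 phase, when MYBL2 and FOXM1 act with the MuvB complex at promoters that carry a cell cycle genes homology region, and the same promoters are kept silent in resting cells by the DREAM complex. Thymocytes divide in bursts before T cell receptor selection, and most CD4 single-positive cells are resting, so transcripts of this class in such a sort come from whatever cells are in cycle. In RNA from a cell mixture, fewer cycling cells and less RNA per cycling cell cannot be told apart.

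The deposited values are linear signals per probe set, analysed as log2(signal + 16) after quantile normalization, so every difference given below is KO minus LM on that scale and understates the change of dim genes. Background was a signal of 78 to 106, depending on the array. The 5 probe sets of Cul3, the cullin that the Cre was meant to remove, differed by -0.15 to 0.31, and none passed the threshold. The brightest read 5333 and 5724 on the LM arrays, against 5380 and 5577 on the arrays labelled KO (limma adjusted p = 0.997). The position of these probe sets relative to the floxed exons is unknown here, and one that lies outside the excised exons cannot check the genotype. The direction of each result below is therefore that of the arrays labelled KO.

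Mitotic transcripts were lower on the arrays labelled KO. Of the 52 genes tested, 50 had a negative difference, against 49.7% of all 11255 genes tested, and the median difference was -0.81, against 0.00 for all genes. That median corresponds to a signal 1.76-fold higher on the LM arrays. In limma, 7 of the 52 genes fell at an adjusted p under 0.05 over all genes tested and 0 rose, against 0.142% of all genes called lower and 0.133% called higher. They were 7 of the 16 genes called lower in the whole series. At an unadjusted p under 0.05, 38 of the 52 were lower and 0 higher, against 4.17% and 4.23% of all genes. For 17 genes the difference was beyond -1, a signal more than halved, against 0.924% of all genes.

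**Figure D1:**
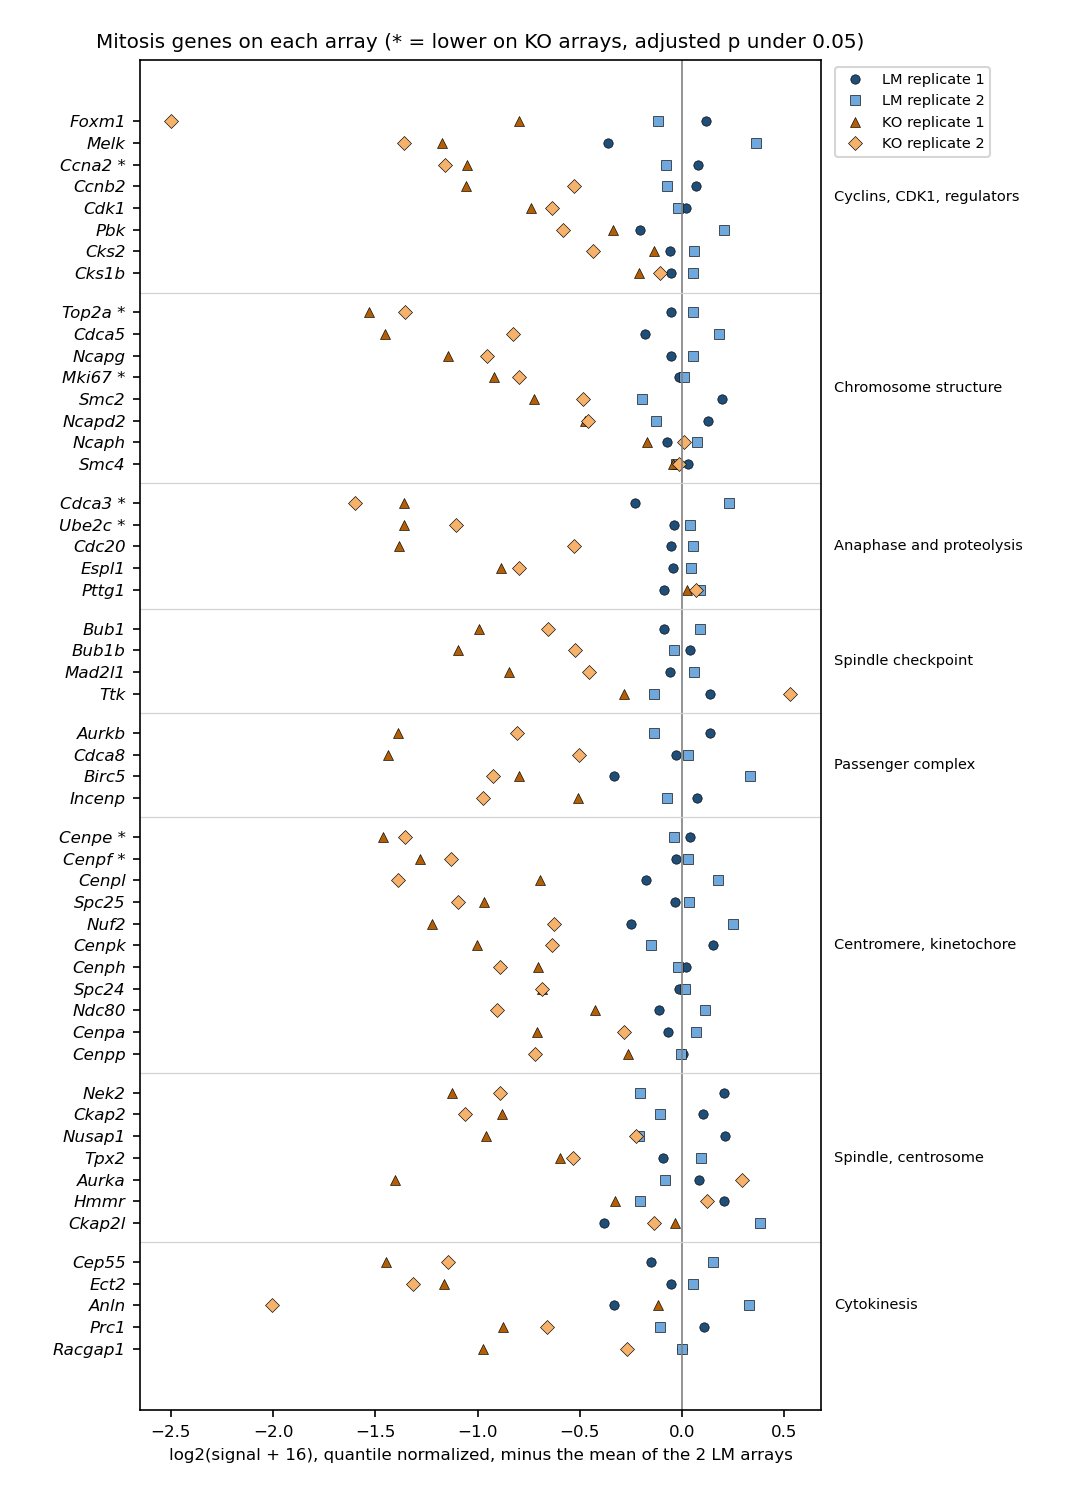
Level of each tested mitosis gene on the 4 arrays, as normalized log2(signal + 16) minus the mean of its 2 LM arrays, grouped by role; each point is 1 array and an asterisk marks the 7 genes that fell. For 44 of the 52 genes both KO points lie left of both LM points, and the 4 arrays overlap for Smc4, Ncaph, Pttg1, Ttk, Aurka, Hmmr, Ckap2l and Anln.

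The plot of each gene by array shows how far the groups separated. On the normalized scale both KO arrays lay under both LM arrays for 44 of the 52 genes, against 18.3% of all genes. For 0 of the 52 did both lie above, against 19.1% of all genes. KO replicate 1 was the lowest array for 33 of the 52 genes and KO replicate 2 for 17. The highest array was LM replicate 2 for 31 genes and LM replicate 1 for 19. With each gene centred on its own mean, the median over the 52 genes was 0.38 and 0.40 on LM replicates 1 and 2 and -0.48 and -0.29 on KO replicates 1 and 2. The LM arrays were thus nearly level with each other, and KO replicate 2 was the less shifted KO array. Without KO replicate 1 the median difference was -0.66 and 46 of 51 tested genes were negative, and without KO replicate 2 it was -0.88 with 51 of 52 negative.

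The filter on dim genes could favour a difference, since Melk, Cenpl and Ckap2 passed it on their LM arrays alone. With no filter, 52 of the 54 genes with a probe set were negative and the median was -0.82. Among the 43 genes above background on all 4 arrays, 41 were negative with a median of -0.77. The number of calls differed between settings. With no filter, or with eBayes without its intensity trend, limma called 0 of the genes, while 36 and 37 of them were lower at an unadjusted p under 0.05. With median centring in place of quantile normalization it called 14.

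The 7 genes that fell span 4 roles. Cdca3, an F-box protein that triggers destruction of the mitotic entry inhibitor WEE1, was 2.79-fold higher on the LM arrays, and Top2a, the topoisomerase that untangles sister chromatids, 2.72-fold. The kinetochore motor Cenpe was 2.66-fold higher and the outer kinetochore protein Cenpf 2.31-fold. Ube2c, the E2 that hands ubiquitin to targets of the anaphase-promoting complex, was 2.35-fold higher, cyclin A2 (Ccna2) 2.15-fold, and Mki67, which coats mitotic chromosomes and is the usual proliferation marker, 1.82-fold. Mki67, Top2a and Ube2c were called in each of the 4 fits that left out 1 array. Cenpe was lost without LM replicate 1 (-1.37). Cdca3 was lost if LM replicate 2 (-1.25) or KO replicate 2 (-1.36) was left out. For Ccna2 the call ended without LM replicate 1 (-1.03) or KO replicate 2 (-1.05). For Cenpf it ended without LM replicate 2 (-1.18) or KO replicate 1 (-1.13).

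Since these genes moved together, their promoters are shown for the 5 largest falls, from 250 bases before the annotated start to 50 after it, in the direction of transcription (RefSeq, GRCm38.p6). Capitals mark 3 kinds of word on either strand: the cell cycle genes homology region, TTTGAA or TTTAAA, the NF-Y box CCAAT, and the E2F words TTCCCGC and TTGGCGC. Cdca3 lies on the plus strand at chr6:124829926-124830225, Top2a on the minus strand at chr11:99024140-99024439, Cenpe on the plus strand at chr3:135212313-135212612, Ube2c on the plus strand at chr2:164769679-164769978 and Cenpf on the minus strand at chr1:189688037-189688336.
Cdca3: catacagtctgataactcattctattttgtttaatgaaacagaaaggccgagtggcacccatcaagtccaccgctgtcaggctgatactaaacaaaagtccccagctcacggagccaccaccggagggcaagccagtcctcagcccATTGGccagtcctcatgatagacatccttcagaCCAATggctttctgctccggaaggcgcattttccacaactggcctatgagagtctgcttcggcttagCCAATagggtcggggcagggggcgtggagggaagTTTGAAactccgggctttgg
Top2a: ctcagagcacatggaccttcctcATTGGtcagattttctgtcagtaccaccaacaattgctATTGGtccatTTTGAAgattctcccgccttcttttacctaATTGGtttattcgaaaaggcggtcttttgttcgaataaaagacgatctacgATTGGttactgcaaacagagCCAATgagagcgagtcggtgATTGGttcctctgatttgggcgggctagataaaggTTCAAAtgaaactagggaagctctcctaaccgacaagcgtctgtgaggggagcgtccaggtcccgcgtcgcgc
Cenpe: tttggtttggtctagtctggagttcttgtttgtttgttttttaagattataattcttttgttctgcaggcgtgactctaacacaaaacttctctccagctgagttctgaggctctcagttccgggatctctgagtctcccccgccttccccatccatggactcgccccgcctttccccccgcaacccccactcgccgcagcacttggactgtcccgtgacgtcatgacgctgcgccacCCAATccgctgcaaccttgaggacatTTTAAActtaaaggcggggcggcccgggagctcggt
Ube2c: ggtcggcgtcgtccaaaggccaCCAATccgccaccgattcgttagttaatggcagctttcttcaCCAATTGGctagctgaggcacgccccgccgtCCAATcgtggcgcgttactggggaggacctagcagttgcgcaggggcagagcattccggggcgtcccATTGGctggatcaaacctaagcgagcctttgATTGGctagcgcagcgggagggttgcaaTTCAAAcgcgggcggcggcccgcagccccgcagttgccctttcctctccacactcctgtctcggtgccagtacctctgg
Cenpf: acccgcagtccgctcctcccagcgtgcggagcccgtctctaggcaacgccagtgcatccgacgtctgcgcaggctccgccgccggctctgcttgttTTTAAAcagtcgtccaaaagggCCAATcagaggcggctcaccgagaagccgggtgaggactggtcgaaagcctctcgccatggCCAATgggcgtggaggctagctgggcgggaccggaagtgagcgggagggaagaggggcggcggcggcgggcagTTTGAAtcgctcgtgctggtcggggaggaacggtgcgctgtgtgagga
Each of the 5 windows holds at least 1 homology region word and at least 1 CCAAT box, and none holds an E2F word. Of the called genes not shown, Mki67 has a window with a homology region word, CCAAT and an E2F word, and Ccna2 had no window. A homology region word starts 23 bases before the start in Top2a and 29 before it in Ube2c, and 3, 15 and 31 bases after it in Cenpf, Cenpe and Cdca3. Top2a and Ube2c hold 6 CCAAT boxes each, of which 2 in Ube2c overlap, and Cdca3 holds 3. A match is a description of the sequence, and no window was tested for binding.

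Promoter windows were at hand for 47 of the 55 symbols, 52 windows in all. A homology region word was present in 71.2% of them, against 27.6% of all 32851 promoters and 19.5% of the 11620 promoters of tested genes. CCAAT was present in 73.1%, against 37.4% of all promoters and 37.7% of those of tested genes. The E2F words were present in 23.1%, against 6.81% and 11.7%. Both a homology region word and CCAAT were present in 59.6%, against 10.7% and 7.5%. Among the tested genes with a window, the median difference was -0.86 for the 32 tested genes with a homology region word and -0.72 for the 12 without. The ranges overlapped, at -1.48 to 0.12 with the word and -1.27 to 0.05 without, and the difference between the medians was not tested.

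Among cyclins, CDK1 and their regulators, 8 of 9 genes were tested, all 8 were negative, and Ccna2 fell. Ccna2, which drives S phase and entry into mitosis, read 1443 and 1299.8 on the LM arrays, against 646 and 608 on the KO arrays (-1.11 ± 0.18, SE, adjusted p = 0.0241). The KO arrays agreed closely and sat well below both LM arrays. Ccnb2, a B-type cyclin, read 675 and 594 against 290.4 and 435 (-0.79 ± 0.24, adjusted p = 0.318), and its kinase partner Cdk1 486.5 and 452 against 272 and 303 (-0.69 ± 0.23, adjusted p = 0.394). Neither passed the threshold. Both KO arrays lay under both LM arrays in each, as they did for 18.3% of all genes tested. Foxm1, a transcription factor of the G2/M program, had the largest fitted difference of all 52 genes, at 451 and 361 against 223 and 63.3 (-1.65 ± 0.45, adjusted p = 0.245). Its KO arrays were far apart, with 1 below background, so leaving out KO replicate 2 gave -0.80 and leaving out KO replicate 1 gave -2.50. Melk, a kinase of proliferating cells, read 148 and 238 on the LM arrays and was below background on both KO arrays, at least 1.98-fold higher on the LM arrays (adjusted p = 0.369). Mybl2, the B-Myb factor, was above background on 1 LM array (68.8 and 105 against 15.9 and 64.9) and was not tested. The CDK-binding subunits Cks1b and Cks2 and the kinase Pbk differed least, by -0.16 ± 0.11, -0.29 ± 0.17 and -0.46 ± 0.27.

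Genes of chromosome structure were all 8 tested and negative, and Mki67 and Top2a fell. Mki67 read 6674 and 7362 on the LM arrays, against 3743 and 3979 on the KO arrays (-0.86 ± 0.10, adjusted p = 0.00285). Top2a read 1540.3 and 1677 against 539.8 and 619 (-1.44 ± 0.18, adjusted p = 0.00468). In both genes the distance between the groups was many times the distance between replicates. Subunits of condensin, the ring that compacts chromosomes, had differences of unlike size on their brightest probe sets. Ncapg read 907 and 965 against 409.9 and 475 (-1.05 ± 0.20, adjusted p = 0.0612), just short of the threshold. Ncapd2 differed by -0.47 ± 0.22 and Ncaph by -0.08 ± 0.25. The other probe set of Ncaph differed by -0.83 ± 0.28 (adjusted p = 0.419), so the value of Ncaph depends on that choice. Of the ring's core ATPases, Smc2 differed by -0.60 ± 0.18 (adjusted p = 0.329). Its partner Smc4 read 14860 and 15900 against 15571 and 14673 (-0.03 ± 0.06, adjusted p = 0.949). The 95% interval of Smc4 placed the KO signal between 89.5% and 107% of the LM signal. Cdca5 (sororin), which protects sister cohesion, read 391 and 478 against 145 and 242 (-1.14 ± 0.29, adjusted p = 0.202).

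Of the 5 genes of anaphase and proteolysis, 4 were negative, and Cdca3 and Ube2c fell. Cdca3 read 695 and 945 on the LM arrays, against 299 and 261 on the KO arrays (-1.48 ± 0.24, adjusted p = 0.0219). Ube2c read 1889.5 and 2024 against 748 and 901 (-1.23 ± 0.17, adjusted p = 0.00868). Both KO arrays lay below both LM arrays in each gene, against 18.3% of all genes tested. Cdc20, the activator of the anaphase-promoting complex, read 409 and 418 against 146 and 287 (-0.96 ± 0.30, adjusted p = 0.352), with KO arrays well apart. Espl1 (separase), which cuts cohesin, read 244 and 243 against 124 and 141 (-0.84 ± 0.31, adjusted p = 0.441). Pttg1 (securin), the inhibitor of separase, read 2814 and 3284 against 3085 and 3134.5 (0.05 ± 0.12, adjusted p = 0.968). Its interval, 85.6% to 125% of the LM signal, excluded a fall of the size seen in Ube2c or Cdca3.

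The 4 spindle checkpoint genes gave no call. Bub1, a kinetochore kinase, read 222 and 234 against 106 and 147 (-0.82 ± 0.33, adjusted p = 0.498). The checkpoint proteins Bub1b and Mad2l1 differed by -0.81 ± 0.31 and -0.65 ± 0.23. In all 3 genes both KO arrays lay under both LM arrays, a position also found in 18.3% of all genes tested. Ttk, the kinase that starts the checkpoint signal, was dim and read 156 and 113 against 108 and 209.9 (0.12 ± 0.39, adjusted p = 0.973). Its interval, 60.7% to 195% of the LM signal, is too wide to place it with or apart from the others.

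On their brightest probe sets, all 4 genes of the chromosomal passenger complex, which corrects kinetochore attachments, were negative with groups that did not overlap. None passed the threshold. Over all genes tested, 18.3% had both KO arrays under both LM arrays. The scaffold Incenp read 3429 and 3216 against 2336 and 1663 (-0.74 ± 0.16, adjusted p = 0.112). Its other probe sets above background differed by -0.48, -0.31 and -0.06, and on each of these the groups overlapped. Borealin (Cdca8) read 2094 and 2219.7 against 781 and 1509 (-0.97 ± 0.24, adjusted p = 0.202). Survivin (Birc5) differed by -0.86 ± 0.25 and the kinase Aurkb by -1.10 ± 0.34. Replicates were uneven here: Cdca8 was much lower on KO replicate 1 than on KO replicate 2, and Birc5 was lower on LM replicate 1 than on LM replicate 2 (608 and 961).

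All 11 centromere and kinetochore genes were negative, with both KO arrays under both LM arrays in each, against 18.3% of all genes tested. Cenpl passed the filter on its LM arrays alone, which favours such a position. Their median was -0.82. Cenpe read 706 and 648 on the LM arrays, against 231 and 259.9 on the KO arrays (-1.41 ± 0.22, adjusted p = 0.0213). Cenpf read 866 and 890.1 against 344.5 and 394 (-1.21 ± 0.20, adjusted p = 0.0303). Replicates were close in both genes, and both fell. Among the 4 subunits of the NDC80 complex, which binds microtubules, Spc25 read 693 and 712 against 343 and 324 (-1.03 ± 0.21, adjusted p = 0.0912). Spc24 differed by -0.68 ± 0.20, Ndc80 by -0.67 ± 0.23 and Nuf2 by -0.92 ± 0.35. Of the inner kinetochore subunits, Cenpk and Cenph differed by -0.82 ± 0.23 and -0.80 ± 0.24, and Cenpp by -0.49 ± 0.33. Cenpl was below background on both KO arrays, at least 1.73-fold higher on the LM arrays (adjusted p = 0.526). The centromeric histone Cenpa read 408 and 427 against 245 and 345 on its brightest probe set (-0.50 ± 0.25, adjusted p = 0.654). Another probe set of Cenpa differed by -1.01 ± 0.26 (adjusted p = 0.209). A dim one, below background on both KO arrays, differed by -1.08 ± 0.46 (adjusted p = 0.579).

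On their brightest probe sets, spindle and centrosome genes had the least negative median of the role groups. It was -0.56 over 7 tested genes, all negative and none called. Nek2, a centrosome kinase, read 358 and 245 against 127 and 161 (-1.01 ± 0.30, adjusted p = 0.321). Ckap2, a microtubule stabiliser, was below background on both KO arrays and at least 1.71-fold higher on the LM arrays (adjusted p = 0.526). The spindle assembly factor Tpx2 and the microtubule bundler Nusap1 differed by -0.56 ± 0.23 and -0.59 ± 0.26. The kinase Aurka read 262 and 215 against 80.1 and 304, so that 1 KO array lay below and the other above both LM arrays (-0.56 ± 0.46). Without KO replicate 1 its difference was 0.29. Hmmr and Ckap2l, a pair of spindle proteins, differed by -0.10 ± 0.27 and -0.08 ± 0.28 on their brightest probe sets. Their other probe sets were more negative, down to -1.50 for Hmmr and -1.16 for Ckap2l, so the group median depends on that choice. Plk1, the central mitotic kinase, was above background on 1 LM array (103 and 186 against 92 and 37.5) and was not tested.

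The 5 cytokinesis genes had the most negative median of the role groups, -1.06, with no call. That median is the value of Anln, a dim gene that ran from -1.39 to -0.12 in fits that left out 1 array. The order of the role groups was not tested. Cep55, a factor of the final cut between daughter cells, read 404 and 476 against 148 and 196 (-1.30 ± 0.27, adjusted p = 0.0990). The RhoA exchange factor Ect2 read 224 and 224 against 91.1 and 86.9 (-1.24 ± 0.35, adjusted p = 0.274). In both, replicates were close and the groups far apart. Prc1, which bundles midzone microtubules, differed by -0.77 ± 0.22, and Racgap1, the partner of Ect2, by -0.62 ± 0.27. Anln (anillin) differed by -1.06 ± 0.60, but its KO arrays read 124 and 24.2 and overlapped the LM arrays at 108 and 166.

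**Figure D2:**
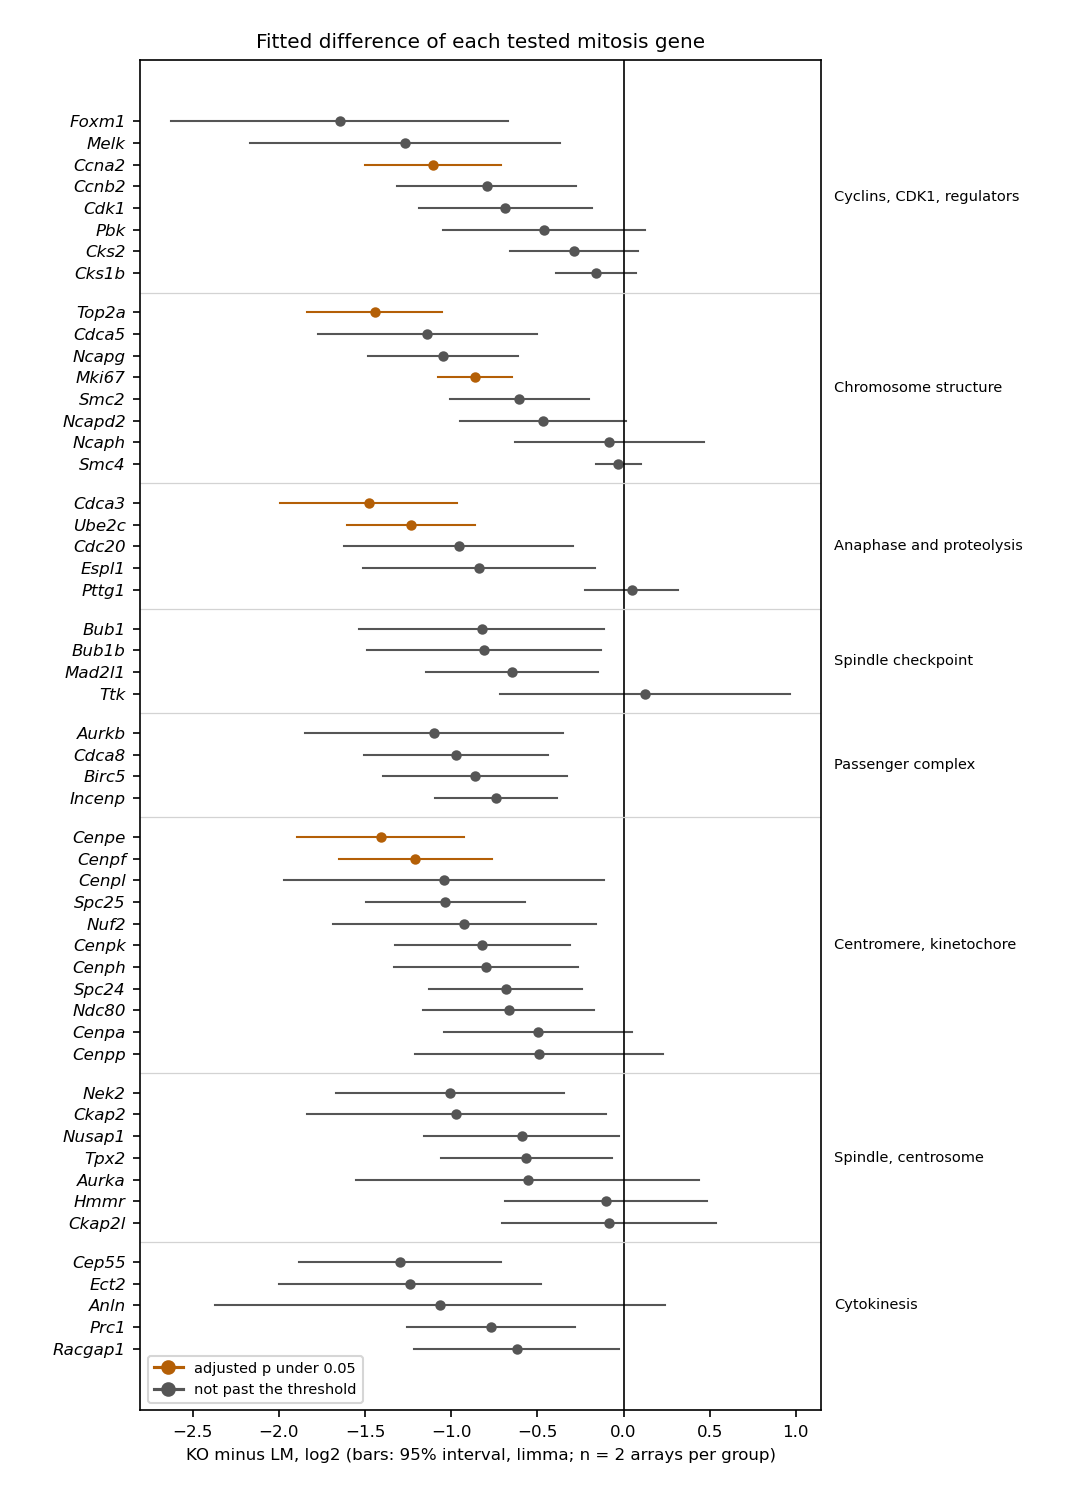
Fitted KO minus LM difference (log2) of each of the 52 tested mitosis genes, grouped by role, with its 95% interval from limma (n = 2 arrays per group). For 38 genes the whole interval lies below 0, and for 9 genes, Smc4, Pttg1, Cks1b and Cks2 among them, the interval of the brightest probe set excludes a fall of 1.

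The plot of fitted differences rests on the brightest probe set of each gene. On that probe set the 95% interval lay above -1 for 9 genes, Cks1b, Cks2, Ncapd2, Ncaph, Smc4, Pttg1, Ttk, Hmmr and Ckap2l. For Cks1b, Cks2, Smc4, Pttg1 and Ttk this held for every probe set above background. For Ncapd2, Ncaph, Hmmr and Ckap2l the interval of at least 1 other probe set included a fall of that size. The other uncalled genes had intervals that include a fall of that size. Their missing calls show no absence of change at this number of arrays.

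Probe sets of the same gene served as repeat measurements of its transcript, although they share the 4 samples. Of the 118 probe sets, 98 were above background on at least 2 arrays. Of these, 95 were negative, against 50.8% of all 21795 probe sets tested, and their median was -0.74, against 0.00 for all. With every probe set as its own feature, 7 of the 98 fell in limma and 0 rose, against 0.11% and 0.119% of all probe sets, and 63 were lower at an unadjusted p under 0.05, against 3.99%. The 7 were the brightest probe sets of the 7 genes named above.

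Of the 32 genes with at least 2 probe sets above background, 30 had all of them negative, against 22.8% of the 5708 genes of that kind in the series. The exceptions were Ttk, whose 2 probe sets were positive (0.12 and 0.18), and Pttg1, whose 3 lay at 0.05, -0.03 and -0.12. For Cks1b, Cks2, Smc4 and Pttg1 each probe set gave a small difference, the largest being -0.47 for the second of Cks2. For other genes the choice of probe set mattered more. The brightest of the 5 probe sets of Hmmr gave -0.10 and another gave -1.50 ± 0.30 (adjusted p = 0.0736), reading 374 and 371 on the LM arrays, against 99.3 and 152 on the KO arrays. Ckap2l gave -0.08 and -1.16 (adjusted p = 0.119), and Ncaph -0.08 and -0.83. In the opposite direction, Cenpe gave -1.41 and -0.39, Spc25 -1.03 and -0.31, and Incenp from -0.74 to -0.06. The difference between such probe sets was not tested, and where each lies in its gene was not analysed here. Among probe sets not tested, 1 of Top2a, above background on KO replicate 1 alone, read 10.2 and 13.1 on the LM arrays, against 98.3 and 46.3 on the KO arrays. Averaging all probe sets of a gene, dim ones included, left 3 calls, Mki67, Ube2c and Ncapg, with a median of -0.69.

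**Figure D3:**
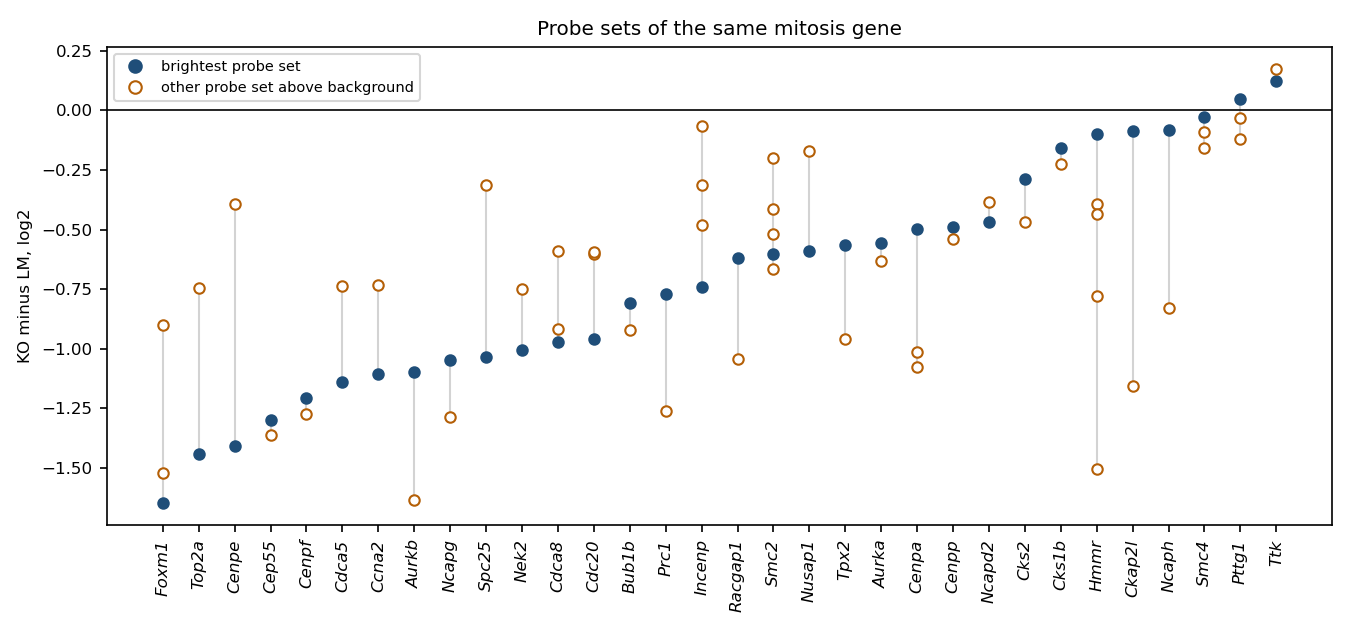
KO minus LM difference (log2) of every probe set above background for the 32 mitosis genes with at least 2 of them; filled points are the brightest probe set, open points the others. Of the 32 genes, 30 have all points below 0, and Hmmr, Ckap2l and Ncaph have a brightest probe set near 0 with others well below it.

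Related genes that are no part of the list were set beside it. Other periodic mitosis genes, such as Aspm and Knl1, had a median of -0.46 over 39 tested, with 36 negative and 0 called. Those with the smallest p were Hmgb2 (-0.61, adjusted p = 0.0515), a chromatin protein of dividing cells, the kinetochore scaffold Knl1 (-0.77) and the condensin II subunit Ncapg2 (-0.83). Mitotic kinesins had a median of -0.63 over 9 tested, with 9 negative, and Kif11, the motor that separates spindle poles, fell (-1.25 ± 0.17, adjusted p = 0.00840). Kif22 and Kif4 differed by -0.76 and -1.18. S-phase genes had a median of -0.25 over 48 tested, with 41 negative, and Uhrf1, which acts in maintenance DNA methylation, fell (-1.09 ± 0.19, adjusted p = 0.0398). The ribonucleotide reductase subunit Rrm2 differed by -0.93 (adjusted p = 0.0521) and the histone mRNA binder Slbp by -0.56. Core subunits of the anaphase-promoting complex and of cohesin formed the last list, with regulators such as Fzr1, Nipbl and Wapl counted under the same name. Cells also use these genes outside mitosis. Their median was -0.03 over 25 tested, with 14 negative and 0 called. Among them Anapc1 differed by -0.94 (adjusted p = 0.142), Anapc16 by 0.41 and Fzr1 by 0.44. These are descriptions of the lists, and the differences between their medians were not tested.

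**Figure D4:**
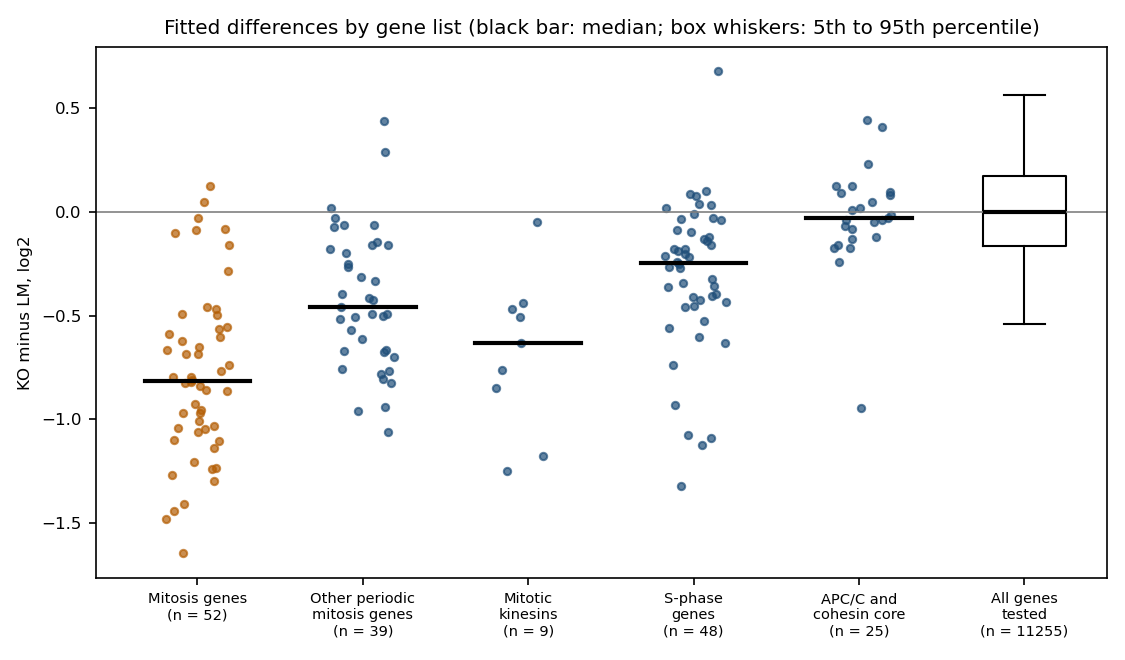
KO minus LM difference (log2) of each tested gene in 5 lists, with the median as a black bar, and a box for all 11255 genes tested (whiskers at the 5th and 95th percentile). Medians are -0.81 for the mitosis genes, -0.46 for other periodic mitosis genes, -0.63 for mitotic kinesins, -0.25 for S-phase genes, -0.03 for core APC/C and cohesin subunits and 0.00 for all genes.

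The plot of the 5 lists shows the order of their medians. Promoter windows of the lists differed as well, a description from sequence alone. A homology region word was present in 90.9% of the mitotic kinesin promoters and 52.4% of those of other periodic mitosis genes. It was present in 22.2% of S-phase promoters and 12% of those of APC/C and cohesin core subunits. The E2F words were present in 51.1% of S-phase promoters.

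Markers of the cells that the sort could hold were read beside these differences. All 10 measured markers of CD4 T cells, Cd4 and Cd3e among them, were above background on every array, with summed signals of 63208 and 68432 on the LM arrays, against 67142 and 62135 on the KO arrays. Immature, partly cycling thymocytes are marked by 8 genes of which 7 had a probe set and 6 were tested. Their summed signals were 3528 and 4222 on the LM arrays, against 4065 and 4206 on the KO arrays, with a median difference of 0.10 and 0 calls. Of the 6, 5 were positive, against 5660 of all 11255 genes tested. Dntt, the brightest of them, differed by -0.02, Arpp21 by 0.04, Cd8a by 0.07 and Rag1 by 0.14. Cd8b1 differed by 0.36 (adjusted p = 0.756) and Rag2 by 0.52 (adjusted p = 0.815). In each of them both KO arrays lay above both LM arrays, a separation also found in 19.1% of all genes tested. Ptcra was below background on every array. Regulatory T cell markers had summed signals of 14662 and 15414 on the LM arrays, against 20586 and 18492 on the KO arrays. Of these 10 markers 9 were positive, against 5660 of all 11255 genes tested. Izumo1r, the brightest of them, rose (0.58 ± 0.09, adjusted p = 0.0213). Il2ra, which encodes the CD25 used for depletion, read 611 and 540 on the LM arrays, against 963 and 948.5 on the KO arrays. Its difference of 0.72 ± 0.19 did not pass the threshold (adjusted p = 0.221). Foxp3 read 499 and 288.5 on the LM arrays, against 794 and 363 on the KO arrays, and the groups overlapped (0.48 ± 0.34, adjusted p = 0.804). The part of this shift of regulatory T cell markers in the mitosis genes was not tested. For NKT and gamma delta T cells the sums were 1542 and 1309 against 1663 and 1493, with Il2rb the brightest and 2 of 5 measured markers below background everywhere. B cell markers summed to 238 to 362 over the 4 arrays, with Cd79b, Ms4a1 and Pax5 below background on every array. Myeloid, erythroid and stromal markers summed to 555 to 712, 189 to 378 and 325 to 414, and 4 of 9, 3 of 4 and 4 of 6 of them were below background on every array. The brightest of these were Cd68, Alas2 and Epcam.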

How the data were processed

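RNA of 4 samples (2 LM, 2 KO), of high integrity, was isolated with Trizol, biotin-labelled and amplified with the WT-Ovation Pico kit according to the labels. The authors deposited linear signal intensities per probe set, scaled so that each array's mean after trimming 2% at each end was 500.0. The summarising program is not given in the sources used here. After 64 controls were left out, 45037 probe sets remained, of which 34945 had 1 gene symbol, 932 several and 9160 none, and 34741 of the first kind matched RefSeq.

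Intensities were analysed as log2(value + 16), quantile normalized. Each gene was read from its brightest probe set over the 4 arrays. Background was set on each array at the 95th percentile of 80 probe sets for odorant and vomeronasal receptors, and genes above it on at least 2 arrays were tested (11255 genes). limma 3.58.1 in R 4.3.3 fitted genotype alone (lmFit, eBayes with intensity trend), with 2 residual degrees of freedom and 9.96 borrowed. P-values are two-sided, with Benjamini-Hochberg adjustment across every tested gene and a threshold of 0.05. For a gene below background on both arrays of a group, that group was raised to background on each array and the fold is a lower bound. The fit was tested on simulated data. With 2 arrays per group, array number limits the precision. Python 3.11.15, pandas 2.3.3 and matplotlib 3.10.9 were used for tables, promoter words and plots.

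The genes and lists were chosen with earlier results of these data known. Named were all genes of the list, with full values for called genes and the next by p, the called genes and the 3 smallest p of each related list, Cul3, and called or brightest markers. Aspm, Cd4, Cd3e, Cd8a, Cd8b1, Rag1, Rag2, Arpp21 and other genes named outside this rule were chosen after their values were seen. Alternatives tried were other filters, normalizations, pseudocounts, eBayes settings and probe set summaries, a replicate block and each array left out.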

Additional observations from a re-analysis of the deposited data

How the results depend on the processing

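Over 14 alternatives, 706 values of the mitosis genes were recomputed: 651 kept their direction and side of the threshold, 25 lost the call, 20 gained it and 10 changed sign, in 6 genes, none of which had been called. The count of mitosis genes called lower (7) was 0 with no filter and 0 without the intensity trend, 14 with median centring and 3 with the mean of all probe sets. In the whole series limma called 0 genes with no filter (1247 at an unadjusted p under 0.05), 0 without the trend (922 at that level) and 81 with median centring, against 31. For single probe sets the count of 7 became 12 with the filter on all 4 arrays, 16 with median centring, and 0 with no filter (56 at an unadjusted p under 0.05) and 0 without the trend (64). The median of -0.81 was -0.70 with a pseudocount of 64 and -0.69 with the mean of probe sets.

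The median of other periodic mitosis genes (-0.46) was -0.48 with no filter, -0.42 with the filter on all 4 arrays, -0.43 with no normalization, -0.48 with median centring, -0.50 with a pseudocount of 1, -0.39 with 64 and -0.49 with the mean of probe sets. For APC/C and cohesin core subunits it was -0.037 with no normalization, -0.086 with median centring and -0.066 with the mean of probe sets. For S-phase genes it was -0.30 with median centring and -0.32 with the mean of probe sets, and for mitotic kinesins -0.52 with a pseudocount of 64. With the mean of probe sets Pttg1 was at -0.034 and Cul3 at 0.041, and with median centring Pttg1 was at -0.017. The cause of these shifts was not tested.

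Leaving out 1 array at a time gave 6 to 8 mitosis genes, 8 to 16 of their probe sets and 33 to 69 genes of the series called, and a median of -0.88 to -0.66. Without an LM array limma borrowed 126 or 83.4 degrees of freedom, and in each such fit the lone array is assumed to vary like the other group. The medians ran from -0.46 to -0.35 for other periodic mitosis genes, -0.034 to 0.0083 for APC/C and cohesin core subunits, -0.76 to -0.51 for mitotic kinesins and -0.29 to -0.24 for S-phase genes, and Cul3 from -0.053 to 0.032. Genes that changed sign ran from -1.40 to 0.29 (Aurka), -0.47 to 0.30 (Ckap2l), -0.33 to 0.12 (Hmmr), -0.17 to 0.0079 (Ncaph), -0.042 to 0.14 (Pttg1) and -0.28 to 0.53 (Ttk). The replicate number as a block gave 9 mitosis genes and 43 genes of the series called. Same-numbered arrays deviated with a correlation of -0.0171, which cannot show whether the samples were paired. An exact permutation test of 2 against 2 arrays cannot go below p = 0.333.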
